A study of Mus musculus with 7 samples.

Results

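The genes described here are 31 genes of endoplasmic reticulum (ER) protein folding, ER-associated degradation and the unfolded protein response, followed in RNA-seq data of sorted CD4+CD25+ mouse liver cells. They are known pathway genes, and the list was chosen with earlier results of these data known. All 31 were found among the 53465 gene IDs of the count table, and all 31 were among the 14784 genes with enough reads to test, although Chac1 passed only through its reads in mice on the deficient diet. By role, 11 are ER chaperones and their helpers, 3 are protein disulfide isomerases, 5 are stress sensors or transcription factors, 6 act in ER-associated degradation and 6 are targets of the integrated stress response.

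Secreted and membrane proteins fold in the ER with the help of chaperones and of enzymes that form disulfide bonds. When unfolded proteins accumulate, the membrane sensors IRE1 (gene Ern1), PERK (gene Eif2ak3) and ATF6 raise chaperone production, slow translation and send misfolded proteins back to the cytosol for degradation. Lack of an amino acid starts a branch of the same response through ATF4 without ER damage, and T cells raise parts of the programme when they are activated and secrete cytokines.

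Cells were sorted by flow cytometry as CD4+CD25+, a phenotype used to select regulatory T cells (Treg), from liver after 4 weeks of feeding. WT_NCD denotes wild type C57BL/6 mice on a normal control diet (2 libraries), and WT_MCD denotes wild type C57BL/6 mice on a diet lacking methionine and choline, an amino acid and a nutrient whose shortage is widely used to produce fatty liver with inflammation (2 libraries). KO_MCD denotes mice without CD73, the surface enzyme that makes adenosine from AMP, on the deficient diet (3 libraries). Age, sex, the kind of knockout allele and whether libraries came from separate animals are not stated in the labels, so the p-values reflect how much these libraries varied, and that variation may be technical. Knockout mice on the control diet were not analysed here, so genotype was compared on the deficient diet only.

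Total counts ran from 19731501 to 24398738 per library. Nt5e, the CD73 gene, was at 5.88, 14.5 and 6.43 CPM in the KO_MCD libraries, below the 177 and 87.6 CPM of WT_MCD and the 243 and 241 CPM of WT_NCD, where CPM is the read count scaled to library size and composition. All 6 Treg marker genes tested were counted in every library, Foxp3 at 108 to 287 CPM. The libraries also held RNA of other cells: the summed level of 12 macrophage and Kupffer cell genes ran from 7408 to 12697 CPM in KO_MCD, while it was 10792 and 1179 CPM in WT_NCD and reached 2416 and 32876 CPM in WT_MCD. WT_MCD 2 therefore stood apart, and it also had the lowest summed level of 10 T cell genes (5857 CPM, against 6996 to 15624 CPM in the other 6 libraries). In bulk RNA, fewer cells of a type and less RNA per cell cannot be told apart.

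The regulatory sequences of these genes are shown first, because the sensors act through short promoter motifs. RefSeq promoter windows of GRCm38.p6, from 250 bases before to 50 bases after the annotated start site, were found for 27 of the 31 genes (28 windows). Windows were not matched for Atf6, Derl1, Hyou1 and Manf. Both strands were searched for the ER stress response element (ERSE, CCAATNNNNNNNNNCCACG), at which ATF6 acts together with the CCAAT-binding factor NF-Y, and for ERSE-II (ATTGGNCCACG). The unfolded protein response element bound by XBP1 (UPRE, TGACGTGG) and the composite element bound by ATF4 with C/EBP proteins (CARE, TGATGNAAN) were searched in the same way. Only exact matches to these letters were counted, with N as any base, so elements with variant letters were not seen. No match of one motif overlapped a match of another.

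ERSE was found in 8 of 27 member genes (29.6%), and in 37 of all 27025 genes with a window of the same length (0.137%). Of 93 other pathway genes with a window, 2 held it (2.15%). The members were picked as known genes of this response, so the shares of this and the other motifs are a description only. The matches are printed 5′ to 3′ along the motif's strand, with the letters fixed by the motif in capitals and positions counted from the annotated start site. They belong to chaperones and their helpers, to the isomerase Pdia6 and to Syvn1, the ubiquitin ligase of ER-associated degradation, and Hsp90b1 has a pair of them.
Calr, positions -162 to -144: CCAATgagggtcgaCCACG
Canx, positions -145 to -127: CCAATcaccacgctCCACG
Creld2, positions -126 to -108: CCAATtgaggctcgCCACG
Dnajc3, positions -105 to -87: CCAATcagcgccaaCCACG
Hsp90b1, positions -212 to -194: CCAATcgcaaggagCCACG
Hsp90b1, positions -107 to -89: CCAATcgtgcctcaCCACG
Hspa5, positions -65 to -47: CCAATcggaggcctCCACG
Pdia6, positions -98 to -80: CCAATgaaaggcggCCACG
Syvn1, positions -44 to -26: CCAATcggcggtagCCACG

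ERSE-II was found in Dnajb11 and Herpud1 (7.41% of member genes, 0.0444% of all genes with a window).
Dnajb11, positions 7 to 17: ATTGGcCCACG
Herpud1, positions -52 to -42: ATTGGgCCACG

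CARE was found in 5 of 27 member genes (18.5%) and in 4.5% of all genes with a window. Among the other pathway genes it was in 12 of 93 (12.9%). Its member matches are in 4 of the 6 integrated stress response targets and in Herpud1. UPRE had no match in the 27 member genes and was in 0.714% of all genes with a window.
Asns, positions -23 to -15: TGATGaAAc
Atf3, positions -111 to -103: TGATGcAAg
Chac1, positions -194 to -186: TGATGcAAc
Herpud1, positions -113 to -105: TGATGcAAc
Trib3, positions 13 to 21: TGATGtAAa

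The 250 bases before the start site are given for 3 genes, each standing for another arrangement. Hspa5 has 1 exact ERSE match near the start site, Herpud1 has ERSE-II and CARE together, and Asns has CARE alone. Capitals mark the fixed letters of the matches, and the coordinates are those of GRCm38.p6.
Hspa5, chr2:34771840-34772089, plus strand: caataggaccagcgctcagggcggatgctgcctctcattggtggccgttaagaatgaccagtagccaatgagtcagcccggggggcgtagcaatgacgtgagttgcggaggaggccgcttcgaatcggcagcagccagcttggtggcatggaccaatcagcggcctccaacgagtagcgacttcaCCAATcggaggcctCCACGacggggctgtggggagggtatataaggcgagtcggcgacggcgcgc
Herpud1, chr8:94386179-94386428, plus strand: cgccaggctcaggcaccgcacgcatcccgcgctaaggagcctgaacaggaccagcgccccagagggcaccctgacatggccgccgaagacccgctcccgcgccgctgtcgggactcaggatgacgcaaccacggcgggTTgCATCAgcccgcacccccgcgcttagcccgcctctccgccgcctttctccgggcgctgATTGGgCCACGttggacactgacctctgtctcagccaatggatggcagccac
Asns, chr6:7693210-7693459, minus strand: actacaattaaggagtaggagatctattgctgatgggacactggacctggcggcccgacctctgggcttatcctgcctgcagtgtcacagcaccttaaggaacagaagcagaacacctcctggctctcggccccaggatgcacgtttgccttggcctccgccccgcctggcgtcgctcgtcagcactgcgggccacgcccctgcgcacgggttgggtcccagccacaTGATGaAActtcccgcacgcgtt
A match is a description of these letters, and binding was not measured.

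**Figure D1:**
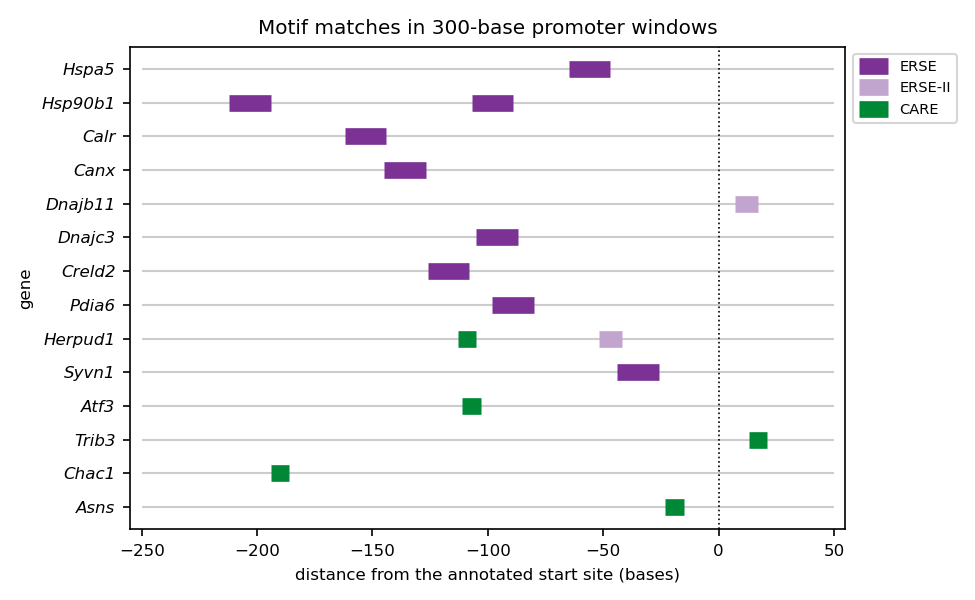
Positions of motif matches (coloured blocks) in the promoter windows of the 14 member genes that have one, in bases from the annotated start site (dotted line), with 1 row per gene. ERSE matches lie from position -212 to -26, and Dnajb11 and Trib3 have their match after the start site.

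Levels differed widely among the genes. Per kilobase of exon and as a mean over the 7 libraries, Pdia3 was highest at 838 CPM per kb, followed by Ppp1r15a at 776 and Hspa5 at 530 CPM per kb. Pdia3 encodes ERp57, the isomerase that works with calnexin and calreticulin and in MHC class I loading. Ppp1r15a encodes GADD34, the phosphatase subunit that restores translation, and Hspa5 encodes BiP, the main ER chaperone of the HSP70 family. These levels lay above those of 99.4 to 99.6% of all genes tested. Calr, Canx and Hsp90b1, which encode calreticulin, calnexin and GRP94, had 161, 133 and 121 CPM per kb. Of the sensors, Ern1 had 2.41 and Eif2ak3 2.14 CPM per kb, above 42.1% and 39.9% of all genes tested, and Atf6 had 9.11 CPM per kb, above 69.0%. Chac1, a glutathione-degrading enzyme, was lowest at 0.371 CPM per kb.

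**Figure D2:**
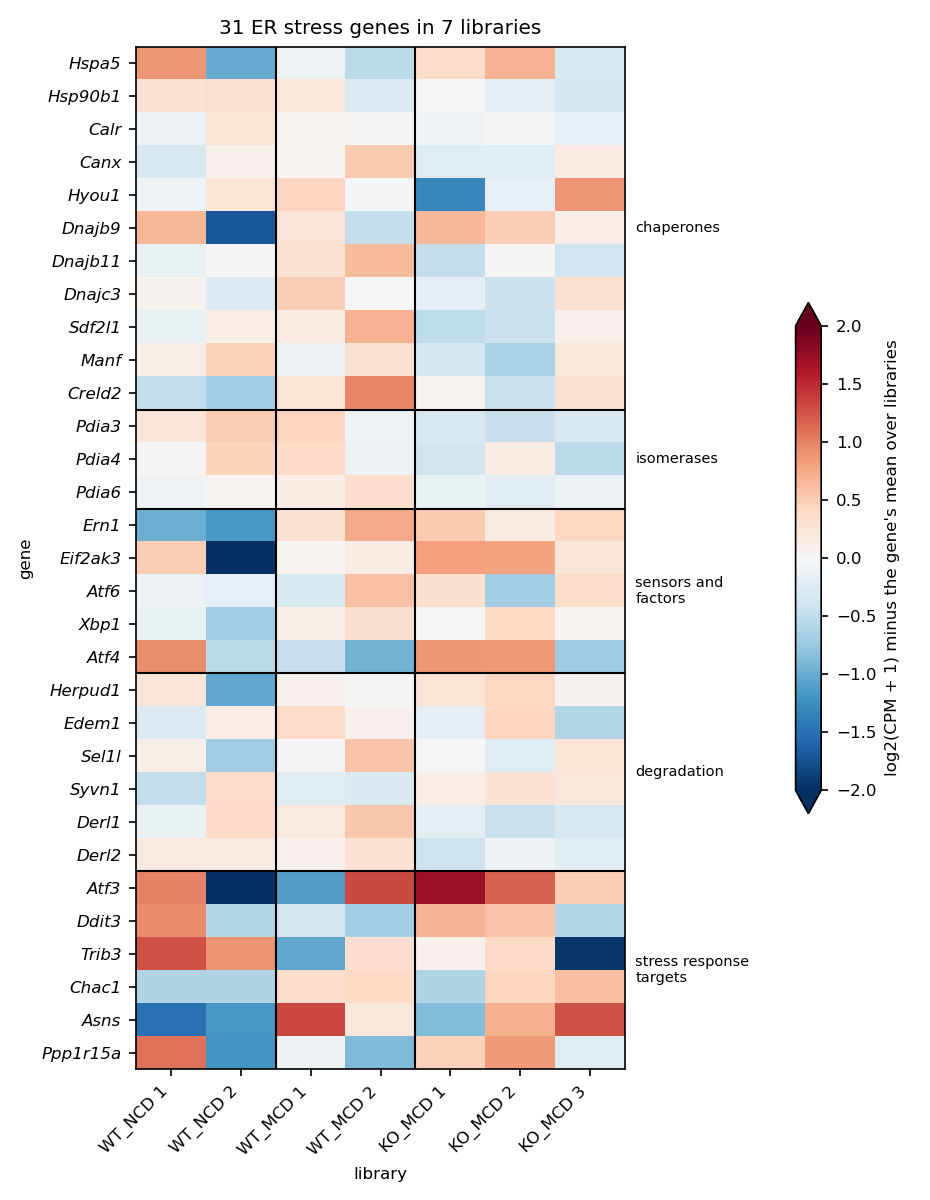
Level of each of the 31 genes (rows, by role) in each library (columns, by group), as log2(CPM + 1) minus the gene's mean over the 7 libraries. Ern1 and Asns are low in both WT_NCD libraries, while Hspa5, Atf4, Ddit3 and Ppp1r15a are high in WT_NCD 1, KO_MCD 1 and KO_MCD 2, and Atf3 and Eif2ak3 are low in WT_NCD 2.

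The first comparison asks how the genes differ between diets in wild type mice. Ern1, the gene of the sensor IRE1, and Asns, which encodes asparagine synthetase, were 3.30-fold and 5.03-fold higher on the deficient diet (SE 0.48 and 0.77 on the log2 scale, 2 libraries a group), and Xbp1 and the chaperone helper Creld2 were also higher in both WT_MCD libraries than in either WT_NCD library. Libraries were apart in this way for 8 higher and 2 lower members of 31, against 16.8% and 14.8% of all genes tested. No gene passed an adjusted p of 0.05 in edgeR, member or not (0% of 14784 tested). Among the members, 20 had a higher and 11 a lower fitted level, with a median log2 fold change of 0.26 against 0.04 over all genes tested. That median was 0.13 without WT_MCD 1 and 0.15 without WT_MCD 2.

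Ern1 (chromosome 11, 106394650 to 106487852, GRCm38, minus strand) had 8.50 and 7.34 CPM in WT_NCD, against 21.7 and 30.6 CPM in WT_MCD. The groups were well apart, and the WT_NCD libraries were close together. Ern1 thus had a log2 fold change of 1.72 (SE 0.48, edgeR adjusted p = 0.712), and it was 1.46 to 1.93 with any 1 library left out. DESeq2 gave an adjusted p of 0.0527. IRE1 splices Xbp1 mRNA in the cytosol, which gene counts do not show.

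Xbp1 (chromosome 11, 5520659 to 5525893), the transcription factor made active by that splicing, had 264 and 180 CPM in WT_NCD, against 314 and 365 CPM in WT_MCD. Both WT_MCD libraries were above both WT_NCD libraries, by little for the nearest pair. On the log2 scale the difference was 0.61 (SE 0.31, edgeR adjusted p = 0.808). Of the other sensors, Atf6 had 74.7 and 71.6 CPM in WT_NCD against 65.1 and 122 CPM in WT_MCD, which overlap. Eif2ak3 had 15.2 and 0.988 CPM in WT_NCD against 11.0 and 11.8 CPM in WT_MCD, so its WT_NCD libraries differed more from each other than from the other group.

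Asns (chromosome 6, 7675169 to 7693254), a classical ATF4 target, had 7.23 and 9.28 CPM in WT_NCD, against 57.2 and 25.8 CPM in WT_MCD. Every WT_MCD value exceeded every WT_NCD value, although the WT_MCD libraries differed from each other. Asns had a fitted log2 difference of 2.33 (SE 0.77, edgeR adjusted p = 0.775), and 1.63 to 2.79 with 1 library left out. Chac1, another ATF4 target, had no reads in either WT_NCD library and 0.930 and 0.998 CPM in WT_MCD. Set against a floor of 3 counts over WT_NCD, it was at least 13.8-fold higher, which covers the counting error of the zeros only (edgeR adjusted p = 0.808). The bound was 6.25-fold without WT_NCD 2 and 7.57-fold without WT_NCD 1. At that bound it stays above the median, so the medians given here are the same.

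Of the 6 stress response targets, 3 had a higher fitted level (Asns, Chac1 and Atf3) and 3 a lower one (Trib3, Ddit3 and Ppp1r15a), a split of 5 and 1 without WT_NCD 1. Trib3, a pseudokinase that restrains ATF4, had 11.8 and 8.89 CPM in WT_NCD, against 1.58 and 5.72 CPM in WT_MCD. Its fitted log2 difference was -1.50 (SE 1.37, edgeR adjusted p = 0.927), with both WT_MCD libraries the lower. Ddit3, which encodes CHOP, had 128 and 43.6 CPM in WT_NCD, against 51.8 and 40.4 CPM in WT_MCD. Only WT_NCD 1 was high among these 4, and the log2 fold change of -0.89 (SE 0.61, edgeR adjusted p = 0.841) became 0.08 without that library. Reads of Ddit3 are uncertain, because its exons overlap those of Mars (Mars1) and of 2 further annotated entries.

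Ppp1r15a had 4203 and 875 CPM in WT_NCD, against 1836 and 1077 CPM in WT_MCD. Its fitted log2 difference was -0.80 (SE 0.70, edgeR adjusted p = 0.918), and 0.73 without WT_NCD 1. Atf4 itself (chromosome 15, 80255184 to 80257541), a factor controlled mainly through its translation, had 469 and 170 CPM in WT_NCD, against 178 and 127 CPM in WT_MCD. The groups differed by a log2 fold change of -1.07 (SE 0.64, edgeR adjusted p = 0.826), and -0.16 without WT_NCD 1. Here too WT_NCD 1 alone was high.

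Atf3, a stress-induced repressor, had 573 and 10.9 CPM in WT_NCD, against 132 and 715 CPM in WT_MCD, so the libraries of each group lay far apart. Its fitted log2 difference was 0.54 (SE 1.41, edgeR adjusted p = 1). The 2 libraries lowest in Atf3, WT_NCD 2 and WT_MCD 1, were also the 2 lowest in the summed macrophage genes. The same 2 were lowest in the summed level of 9 immediate early genes (8427 and 13943 CPM, against 19270 to 22307 CPM in the others). They were also lowest in the summed hepatocyte genes (20.7 and 18.9 CPM, against 58.4 to 334 CPM). The part of macrophage RNA, of other cells or of the immediate early state in Atf3 was not tested.

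Chaperones showed no common difference by diet, with 7 of 11 higher and a median log2 fold change of 0.12. Hspa5 (chromosome 2, 34771970 to 34777547) had 3751 and 1018 CPM in WT_NCD, against 1930 and 1407 CPM in WT_MCD. Both WT_MCD values lay between the WT_NCD values. The fitted log2 difference was -0.52 (SE 0.60, edgeR adjusted p = 0.979), turning to 0.71 without WT_NCD 1. Creld2, an ER-resident protein induced by ER stress, had 8.85 and 7.60 CPM in WT_NCD, against 15.9 and 26.4 CPM in WT_MCD. Its fitted log2 difference was 1.36 (SE 0.60, edgeR adjusted p = 0.808), with the groups apart.

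At an unadjusted edgeR p under 0.05, 2 members were higher (Ern1 and Asns, against 3.96% of all genes tested) and none lower (against 2.04%). The libraries of the 2 groups did not overlap for 8 members that were higher (Dnajb11, Sdf2l1, Creld2, Pdia6, Ern1, Xbp1, Chac1 and Asns, against 16.8% of all genes) and 2 that were lower (Hsp90b1 and Trib3, against 14.8%). Scaled by total counts alone, Canx joined the first set and Hsp90b1 left the second. DESeq2 called 2.13% of all genes and no member, and limma voom called none of either.

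Members of the degradation machinery and the isomerases differed little by diet. Of the 6 degradation genes, 5 had a higher fitted level, with a median log2 fold change of 0.26, and none had separate groups. They ranged from -0.28 for Syvn1 to 0.53 for Sel1l, the adaptor of the Syvn1 ligase. The isomerases Pdia3, Pdia4 and Pdia6 had log2 fold changes of -0.17, -0.09 and 0.26.

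Markers of dendritic cells were higher in the same libraries as Ern1, Xbp1, Creld2 and Asns. In 6.79% of all genes tested, all 5 libraries of the deficient diet were above both WT_NCD libraries. The summed level of 9 plasmacytoid and conventional dendritic cell genes was 357 and 246 CPM in WT_NCD but 677 and 1312 CPM in WT_MCD, and lay at 727 to 1689 CPM in KO_MCD, with 8 of 9 higher in WT_MCD than in WT_NCD and none at 0. Mzb1, a chaperone of B-lineage and plasmacytoid dendritic cells, had 0.961 and 0.816 CPM in WT_NCD against 8.88 to 25.5 CPM in the 5 other libraries. Groups were separate, with WT_MCD higher, for 4 of the 10 tested B and plasma cell genes, against 16.8% of all genes tested. In all, 8 of the 10 were higher in WT_MCD than in WT_NCD (median log2 fold change 1.26). Their summed level, most of it Ighm and Igkc, did not have that direction, at 3234 and 2887 CPM in WT_NCD, against 2461 and 2264 CPM in WT_MCD. The gene of the B and plasma cell list with too few reads to test, Tnfrsf17, was at 0 in 6 of 7 libraries. Other lists also differed by diet. NK and CD8 T cell genes were higher in WT_MCD for 8 of 9 (median 1.24), and monocyte and neutrophil genes for 8 of 8 (2.84). T cell genes were lower for 10 of 10 (-0.61), cell division genes for 12 of 12 (-1.43) and cytosolic heat shock genes for 10 of 11 (-0.60). Macrophage genes were higher for 10 of 12 (0.68). Their summed level was 10792 CPM beside 8.50 CPM of Ern1 in WT_NCD 1, and 2416 CPM beside 21.7 CPM in WT_MCD 1. Among the 7 libraries, WT_NCD 2 was lowest and WT_MCD 2 highest both in that sum and in Ern1. No gene of these lists passed an adjusted p of 0.05 in edgeR, and the part of other cells or states in the members' differences was not tested.

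**Figure D3:**
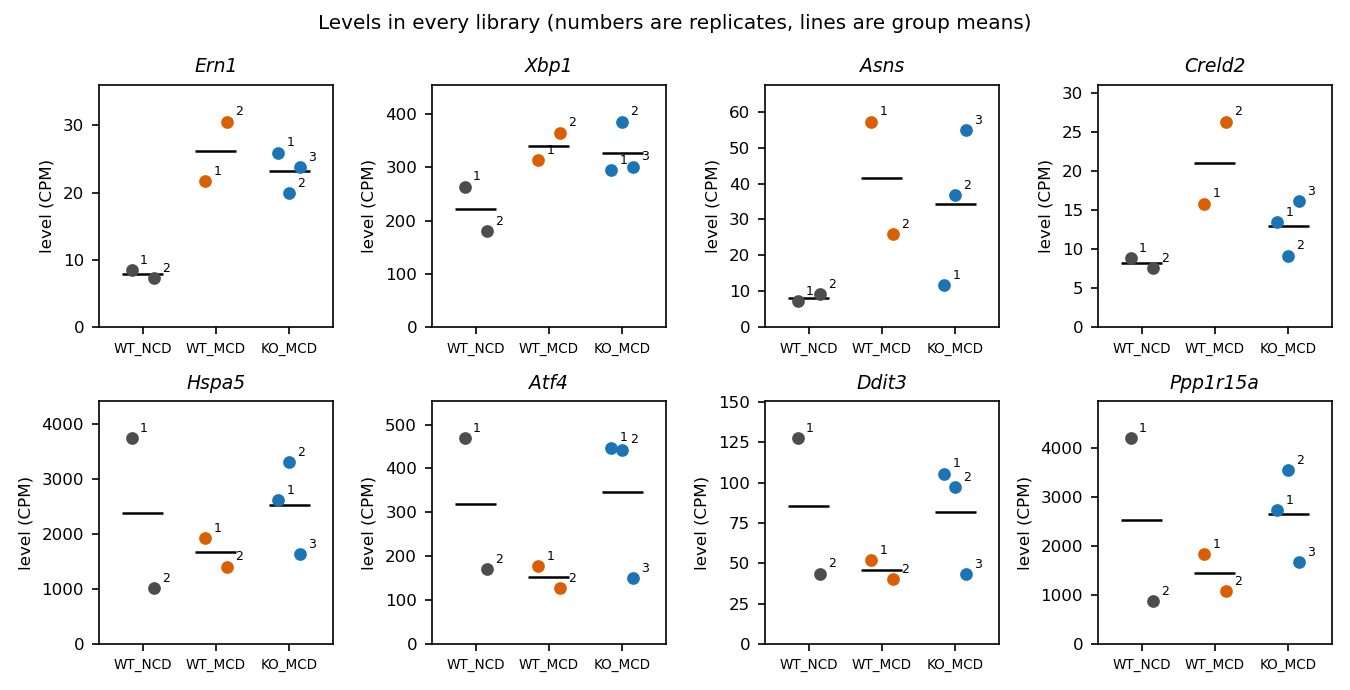
Level in CPM of 8 genes in every library, by group, with replicate numbers beside the points and lines at the group means. In the upper row (Ern1, Xbp1, Asns, Creld2) all 5 libraries of the deficient diet lie above both WT_NCD libraries. In the lower row (Hspa5, Atf4, Ddit3, Ppp1r15a) WT_NCD 1, KO_MCD 1 and KO_MCD 2 are the 3 highest libraries.

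Among 112 other tested pathway genes, 75 were higher and 37 lower in WT_MCD, with a median log2 fold change of 0.19. At an unadjusted edgeR p under 0.05, 5 were higher (against 3.96% of all genes tested) and none lower (against 2.04%), which is near the share over all genes. Pdia5, a further disulfide isomerase, had no reads in WT_NCD and 1.63 and 9.14 CPM in WT_MCD, at least 74.1-fold higher against the floor. That bound was 25.1-fold without WT_MCD 2, 122-fold without WT_MCD 1, 40.6-fold without WT_NCD 1 and 33.5-fold without WT_NCD 2. Pdia5 missed the threshold in edgeR (adjusted p = 0.548) and passed in DESeq2 (adjusted p = 0.000643). Like Chac1, it had enough reads to test only through the mice on the deficient diet, so these p-values are a description only. Cnpy3, a chaperone of Toll-like receptors, had a log2 fold change of 1.23. Aup1 and the conjugating enzyme Ube2j1, both of ER-associated degradation, had 0.97 and 0.72, and Atf6b, the relative of Atf6, had 0.88. Wfs1 had 4.69, from 0.607 to 15.7 CPM on average. Tram1 and Ddost, of translocation and N-glycosylation, had 0.56 and 0.61, and the ATF4 targets Ddit4 and Psat1 had 1.24 and -0.85. In all, 22 of 30 other ATF4 targets had a higher fitted level, with a median of 0.18. The named genes had edgeR adjusted p-values of 0.548 to 0.822.

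The second comparison asks how knockout and wild type cells differ on the deficient diet. Lower values in KO_MCD were the commoner direction among folding and degradation genes: the isomerases Pdia3 and Pdia6, the cochaperones Dnajb11 and Sdf2l1 and the channel proteins Derl1 and Derl2 were lower in each of the 3 KO_MCD libraries than in both WT_MCD libraries, Pdia3 only when library composition was corrected for. Hspa5, Atf4, Ddit3 and Ppp1r15a had higher fitted levels, with overlapping libraries. Libraries were apart for 6 lower and 2 higher members of 31, against 9.66% and 8.37% of all genes tested. No gene passed an adjusted p of 0.05 in edgeR (0% of 14784 tested). Among the members 9 were higher and 22 lower, with a median log2 fold change of -0.17 against -0.03 over all genes tested.

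That split depended on scaling and on single libraries. Scaled by total counts alone it was 13 higher and 18 lower, with medians of -0.07 over the members and 0.07 over all genes tested. Without WT_MCD 2 it was 14 higher and 17 lower, with medians of -0.12 and 0.11. The members' median moved the other way to -0.34 with limma voom, -0.28 with a replicate block and -0.25 without KO_MCD 3, and it was -0.10 without WT_MCD 1.

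Derl1 (chromosome 15, 57869502 to 57892448), which helps move misfolded proteins out of the ER, had 200 and 258 CPM in WT_MCD, against 153, 129 and 141 CPM in KO_MCD. All 3 KO_MCD libraries were lower, and below both WT_NCD libraries (162 and 230 CPM) as well. Derl1 thus had a log2 fold change of -0.70 (SE 0.27, edgeR adjusted p = 1), and -0.51 without WT_MCD 2. Derl2, its paralog, had 149 and 172 CPM in WT_MCD, against 105, 131 and 121 CPM in KO_MCD. The groups did not overlap, and the fitted log2 difference was -0.43 (SE 0.25, edgeR adjusted p = 1).

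Pdia3 (chromosome 2, 121413775 to 121438687) had 3446 and 2409 CPM in WT_MCD, against 2046, 1846 and 2074 CPM in KO_MCD. The KO_MCD libraries were close together and below the 4 wild type libraries, of which WT_MCD 2 was the nearest. On the log2 scale the difference was -0.56 (SE 0.25, edgeR adjusted p = 1), and -0.24 without WT_MCD 1. Scaled by total counts alone, Pdia3 no longer separated the groups. Pdia6 had 276 and 314 CPM in WT_MCD against 226, 214 and 228 CPM in KO_MCD. It was lower throughout, with a log2 fold change of -0.41 (SE 0.23, edgeR adjusted p = 1). The third isomerase, Pdia4, had -0.38 with overlapping libraries.

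Dnajb11, the ER cochaperone ERdj3 that hands substrates to BiP, had 64.8 and 81.6 CPM in WT_MCD, against 37.2, 53.3 and 39.7 CPM in KO_MCD. All KO_MCD values were lower, with a log2 fold change of -0.75 (SE 0.32, edgeR adjusted p = 1). Sdf2l1, which works in a complex with that protein, had 116 and 168 CPM in WT_MCD, against 72.9, 76.2 and 110 CPM in KO_MCD. The nearest libraries of the 2 groups were close, and the fitted log2 difference was -0.71 (SE 0.32, edgeR adjusted p = 1), -0.42 without WT_MCD 2.

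Of the 11 chaperones and helpers, 9 were lower, with a median log2 fold change of -0.33, and without WT_MCD 1 they split into 5 higher and 6 lower. Calr and Hsp90b1 differed by -0.07 and -0.15 on the log2 scale, and Canx by -0.40. The exceptions were Hspa5 and Dnajb9, the ER cochaperone ERdj4. Hspa5 had 1930 and 1407 CPM in WT_MCD, against 2621, 3314 and 1643 CPM in KO_MCD. KO_MCD 1 and 2 were above WT_MCD and KO_MCD 3 lay between its libraries, giving a log2 fold change of 0.60 (SE 0.56, edgeR adjusted p = 1).

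Atf4 had 178 and 127 CPM in WT_MCD, against 447, 443 and 150 CPM in KO_MCD. Only KO_MCD 1 and 2 were high, and KO_MCD 3 was within the wild type range. Atf4 had a fitted log2 difference of 1.19 (SE 0.60, edgeR adjusted p = 1). Ddit3 had the same arrangement, at 51.8 and 40.4 CPM in WT_MCD, against 106, 97.4 and 43.3 CPM in KO_MCD (a fitted log2 difference of 0.83, SE 0.57, edgeR adjusted p = 1). Ppp1r15a had 1836 and 1077 CPM in WT_MCD, against 2733, 3555 and 1674 CPM in KO_MCD (a fitted log2 difference of 0.87, SE 0.65, edgeR adjusted p = 1).

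For Ern1, Xbp1 and Asns the difference between genotypes was smaller than its SE. Ern1 had 25.9, 19.9 and 23.8 CPM in KO_MCD, a log2 fold change of -0.17 (SE 0.42) against WT_MCD. Xbp1 had 295, 386 and 301 CPM in KO_MCD and a log2 fold change of -0.05 (SE 0.28, edgeR adjusted p = 1), which was 0.06 with scaling by total counts. Asns had 11.7, 36.9 and 54.8 CPM in KO_MCD, with a log2 fold change of -0.27 (SE 0.67). Creld2 had 13.5, 9.20 and 16.1 CPM in KO_MCD, with a log2 fold change of -0.71 (SE 0.53, edgeR adjusted p = 1). Errors of this size do not show that the levels were alike.

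No member was higher at an unadjusted edgeR p under 0.05 (against 1.2% of all genes tested), and 2 were lower (Derl1 and Dnajb11, against 2.04%). Libraries did not overlap for 2 members that were higher (Eif2ak3 and Syvn1, against 8.37% of all genes) and for 6 that were lower (Dnajb11, Sdf2l1, Pdia3, Pdia6, Derl1 and Derl2, against 9.66%). DESeq2 called 0.338% of all genes and no member, and limma voom called none of either. Of the 8 members with ERSE in the promoter window, 6 were lower (median log2 fold change -0.25), Hspa5 and Syvn1 being the exceptions, and without WT_MCD 1 they split 4 and 4. The 5 members with CARE had log2 fold changes of 0.66 (Atf3), 0.22 (Herpud1), -0.01 (Trib3), -0.27 (Asns) and -0.31 (Chac1).

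**Figure D4:**
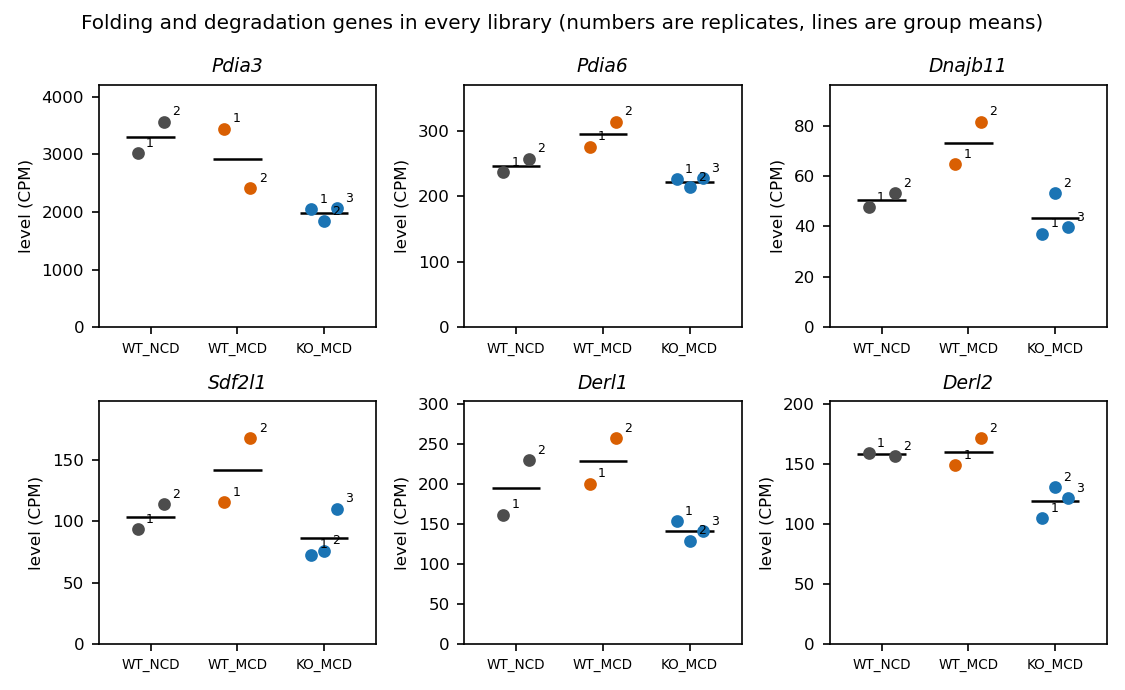
Level in CPM of 6 folding and degradation genes in every library, by group, with replicate numbers beside the points and lines at the group means. In each panel the 3 KO_MCD libraries lie below both WT_MCD libraries, for Pdia3 not so with total-count scaling. For Pdia3, Pdia6, Derl1 and Derl2 they also lie below both WT_NCD libraries, for Pdia6 and Derl1 not so with total-count scaling.

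Of the 112 other pathway genes, 31 were higher and 81 lower in KO_MCD, with a median log2 fold change of -0.17. Scaled by total counts alone the split was 47 and 65, and without WT_MCD 2, when 113 of them could be tested, it was 50 and 63. Genes of translocation, signal cleavage and glycosylation were lower for 19 of 23 (median -0.22), and for 17 of 23 with total-count scaling. Ssr1 and Spcs3, parts of the translocon and the signal peptidase, had -0.56 and -0.61. Lower values were also fitted for the degradation enzymes Ube2j1 and Edem2 (-0.52 and -0.45), the ER membrane protein Tmbim6 (-0.65), the factor Creb3 (-0.48) and the tRNA ligase genes Nars and Tars (-0.58 and -0.44). Fkbp2, an ER prolyl isomerase, had -0.90. Clgn, a calnexin relative, had no reads in KO_MCD and 3.77 and 0.945 CPM in WT_MCD, at least 48.1-fold lower against the floor. That bound was 17.3-fold without WT_MCD 1 and 79.6-fold without WT_MCD 2, and 31.3-fold to 32.5-fold with KO_MCD 1, 2 or 3 left out. Clgn, which had enough reads to test only through wild type libraries, also had no reads in WT_NCD 1. All of these had an edgeR adjusted p of 1.

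Among markers of other cells, 12 of 12 macrophage genes were lower in KO_MCD (none at an unadjusted edgeR p under 0.05), with a summed level of 32876 CPM in WT_MCD 2. WT_MCD 1 had 2416 CPM of them, less than each KO_MCD library (7408 to 12697 CPM). Genes of the cytosolic heat shock response had the opposite direction, with 11 of 11 higher in KO_MCD (median log2 fold change 1.28). Of these heat shock genes, 7 had an unadjusted edgeR p under 0.05 (against 1.2% of all genes tested) and none an adjusted one. Their summed level was 6458 and 3910 CPM in WT_MCD and 8805 to 14257 CPM in KO_MCD, lowest in KO_MCD 3. Other lists also differed. Cell division genes were lower in KO_MCD for 12 of 12 (median -0.58), hepatocyte genes for 7 of 8 (-2.5) and erythroid and platelet genes for 5 of 5 (-2.35). NK and CD8 T cell genes were lower for 7 of 9 (-0.21). Higher values were fitted for 7 of 9 immediate early genes (0.22) and 6 of 10 B and plasma cell genes (0.43). The part of other cells or of these states in the folding genes was not tested.

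**Figure D5:**
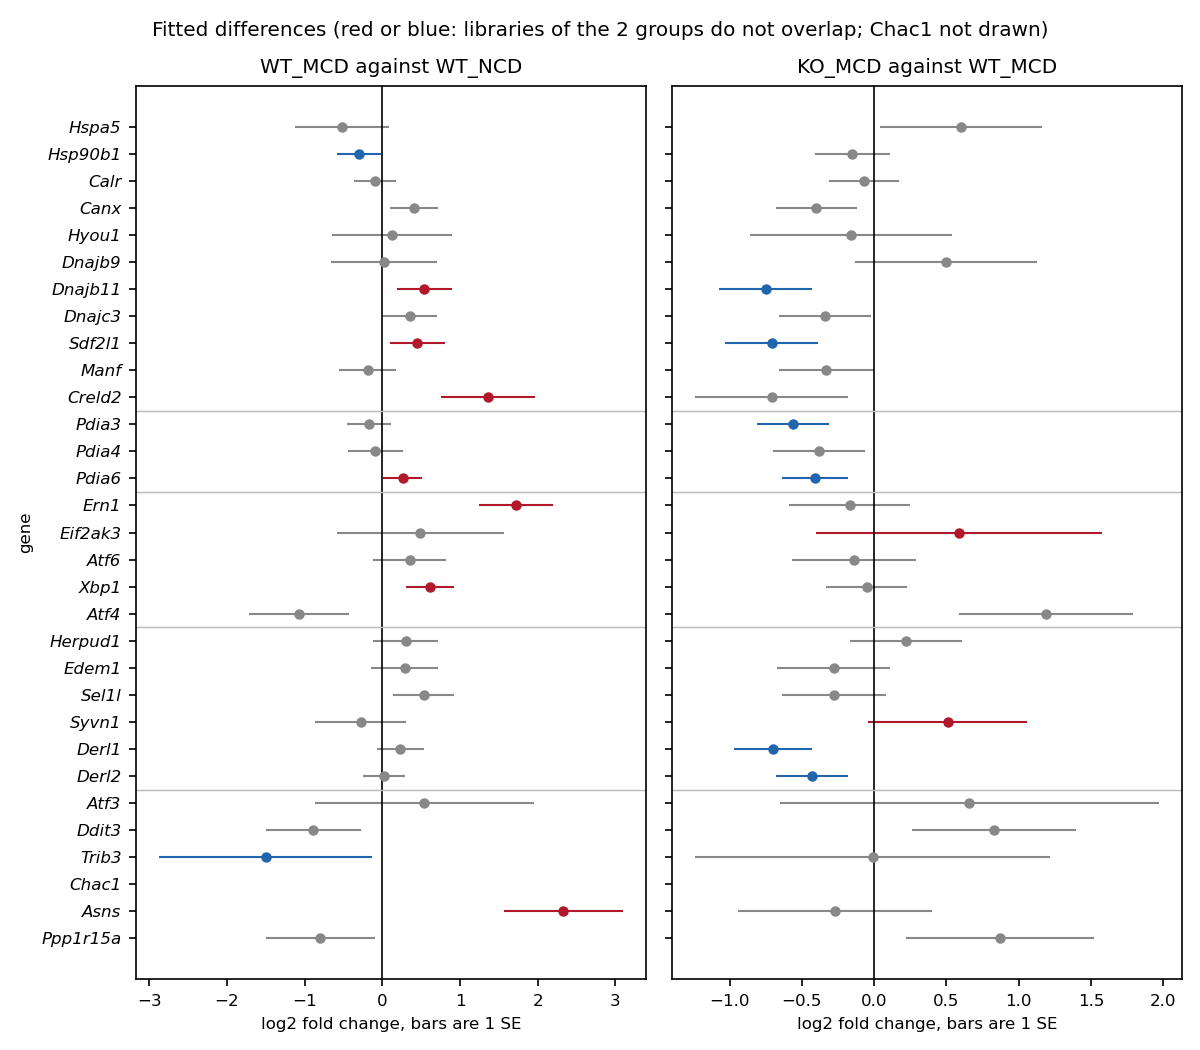
Fitted log2 fold change (points) with 1 SE (bars) of 30 genes, by role, for WT_MCD against WT_NCD (left) and KO_MCD against WT_MCD (right). Colours mark genes whose libraries do not overlap between the 2 groups, higher in red and lower in blue. Ern1 and Asns stand out on the left at 1.72 and 2.33, and most chaperones, isomerases and degradation genes on the right lie below 0. The panels share the WT_MCD libraries, their axes differ, and Chac1 is not drawn because WT_NCD has no reads of it.

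The third comparison sets KO_MCD against WT_NCD, where diet and genotype differ together, and shares its libraries with the comparisons above. Ern1 and Asns were again higher than in the control mice, and Pdia3 was lower. No gene passed an adjusted p of 0.05 in edgeR (0% of 14784 tested). Among the members 18 were higher and 13 lower, with a median log2 fold change of 0.01 against 0.06 over all genes tested, or 0.12 against 0.16 with total-count scaling.

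Ern1 had a log2 fold change of 1.55 (SE 0.45, edgeR adjusted p = 0.416), and 1.45 to 1.66 with 1 library left out. DESeq2 called it (adjusted p = 0.0348), the only member among the 3.8% of all genes called by that tool. Pdia3 had -0.73 (SE 0.25, edgeR adjusted p = 0.503) and Asns had 2.06 (SE 0.73, edgeR adjusted p = 0.507). Chac1 was at least 12.2-fold higher over the group against the floor, although KO_MCD 1 had no reads of it, and the bound was 5.50-fold without WT_NCD 2, 6.66-fold without WT_NCD 1 and 8.32-fold without KO_MCD 3. Xbp1 had 0.56 (SE 0.29, edgeR adjusted p = 0.599). Hsp90b1, Derl1 and Derl2 had -0.45, -0.47 and -0.41, all with separate groups (edgeR adjusted p = 0.621 to 0.640). Hspa5, Atf4 and Ddit3 had 0.08, 0.12 and -0.06, and the sign of each turned with 1 library left out.

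At an unadjusted edgeR p under 0.05, 2 members were higher (Ern1 and Asns, against 4.72% of all genes) and 1 lower (Pdia3, against 4.25%). Libraries did not overlap for 4 members that were higher (Creld2, Ern1, Xbp1 and Asns, against 13.4%) and 6 that were lower (Hsp90b1, Pdia3, Pdia6, Derl1, Derl2 and Trib3, against 12.8%). With total-count scaling, Pdia6 and Derl1 left the latter set. Of the 112 other pathway genes 54 were higher and 58 lower. Pdia5, with 4.71, 9.42 and 4.53 CPM in KO_MCD, was at least 97.3-fold higher against the floor (edgeR adjusted p = 0.320, DESeq2 adjusted p = 9.1e-05). Its bound was 53.3-fold without WT_NCD 1 and 44.0-fold without WT_NCD 2. Here too Pdia5 could be tested only through its reads on the deficient diet, so its p-values are a description only. Atf6b had 1.06 (edgeR adjusted p = 0.413, DESeq2 adjusted p = 0.0383). Ero1a, the oxidase that recharges the isomerases, had 0.78, Aup1 0.74 and Mars1 0.92. Lower values were fitted for Faf2 (-0.49), the stress kinase Map3k5 (-1.64), the signal peptidase genes Sec11a (-1.05) and Spcs2 (-0.64), and Psat1 (-0.91).

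Across both genotypes, all 5 libraries of the deficient diet were above both WT_NCD libraries for 4 members, Creld2, Ern1, Xbp1 and Asns, against 6.79% of all genes tested. They were below both for Hsp90b1 and Trib3, against 7.03% of all genes. Hsp90b1 left that set with total-count scaling. For Creld2 the margin was small, since KO_MCD 2 had 9.20 CPM against 8.85 CPM in WT_NCD 1. For Ern1 the lowest deficient library had 19.9 CPM against 8.50 CPM in the higher WT_NCD library.

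A group of members shared an order of libraries that crossed the study groups. The order separates libraries of the same group, WT_NCD 1 from WT_NCD 2, and KO_MCD 1 and 2 from KO_MCD 3. With 2, 2 and 3 libraries, a group difference in these members cannot be told apart from such differences by library. In 7 of 31 members (22.6%), Hspa5, Dnajb9, Eif2ak3, Atf4, Herpud1, Ddit3 and Ppp1r15a, the 3 highest libraries were WT_NCD 1, KO_MCD 1 and KO_MCD 2, which held for 4.43% of all genes tested and for 2 of 112 other pathway genes. The pattern was noticed after the values were seen and is given as a description. The genes come from several branches: a main chaperone, a cochaperone, a sensor, the factor ATF4, a degradation gene and targets of the stress response. The same 3 libraries were highest for 4 of 11 cytosolic heat shock genes (Hsp90aa1, Hspb1, Hspe1 and Hspa8) and for the immediate early genes Jun and Nr4a1 (2 of 9). They were lowest for Canx, Hyou1 and Sdf2l1 (9.68% of members, 4.73% of all genes), and for 9 of 23 genes of translocation, signal cleavage and glycosylation.

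The same 7 genes differed between the 2 WT_NCD libraries, in a direction fixed by how they were picked. WT_NCD 1 had to be among their 3 highest libraries, and WT_NCD 2 could not be. The sizes are given as a description and are not a second observation. Eif2ak3 differed 15.4-fold, Dnajb9 5.21-fold, Ppp1r15a 4.80-fold, Hspa5 3.68-fold, Ddit3 2.93-fold, Atf4 2.76-fold and Herpud1 2.44-fold, each higher in WT_NCD 1. Atf3, which does not have the pattern, differed 52.7-fold in the same direction. The median member differed 1.33-fold, against 1.62-fold over all genes with reads. The other members with reads ranged from 1.01-fold (Hsp90b1) to 1.77-fold (Sel1l) and 1.90-fold (Syvn1). WT_NCD 1 also had more macrophage RNA (10792 against 1179 CPM), more heat shock RNA (10366 against 7112 CPM) and more immediate early RNA (20364 against 8427 CPM) than WT_NCD 2. The part of these in the pattern was not tested.

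Counts of 11 of the 31 members are uncertain, since their exons share positions with other annotated genes and the counting may or may not have used strand, a setting not given in these sources. Among those named above these are Hsp90b1, Dnajb9, Pdia3, Pdia4, Pdia6, Eif2ak3, Syvn1, Derl2, Ddit3 and Ppp1r15a. The remaining one is Manf, an ER-resident secreted factor, with 104 to 224 CPM over the libraries. Members not described further had 5.63 to 29.4 CPM (Hyou1, the chaperone ORP150), 153 to 288 CPM (Dnajc3, the cochaperone P58IPK), 33.3 to 68.5 CPM (Edem1, which directs misfolded glycoproteins to degradation) and 77.5 to 187 CPM (Sel1l).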

How the data were processed

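The authors deposited raw read counts per Ensembl gene ID for 7 libraries, having used HISAT2 2.1.0 and the build GRCm38 according to the submitters' processing notes. How reads were counted, with which annotation and strand setting, is not stated in these sources. Gene names and exons came from GENCODE M21, which held 53360 of the 53465 IDs, and aliases from the RefSeq table. Samples were grouped by their labels.

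The main test was the quasi-likelihood test of edgeR 4.0.16 (R 4.3.3) on all 7 libraries, with 1 coefficient per group, TMM scaling, the filterByExpr filter at a minimum of 10 counts, and Benjamini-Hochberg adjustment over 14784 genes. SEs were derived from the fold change and its F value. Fitted fold changes use a prior count of 0.125. A count of 0 allows 0.123 to 0.152 CPM per library (3 counts, counting error only). The biological coefficient of variation was 91.3%, and libraries of a group differed beyond sampling noise (chi-square values of 88.7 to 320 per degree of freedom). Scripts were tested on simulated data. Alternatives were other scalings, no low-count filter, DESeq2 1.42.0, limma 3.58.1 voom, the 2 groups alone, a replicate block and each library left out.

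Members and lists were chosen with earlier results of these data known. Named in each comparison were Hspa5, Xbp1, Atf4, Ddit3, the 4 members with the smallest edgeR p in each direction and the 2 such genes of each list of other pathway genes. Further members were named after their values were seen. Of the lists of other cells, the summed levels were 18.9 to 334 CPM for hepatocyte, 5.88 to 1720 CPM for cholangiocyte, 72.4 to 230 CPM for endothelial and stellate, 5.44 to 341 CPM for erythroid and platelet, 933 to 2574 CPM for monocyte and neutrophil, and 370 to 792 CPM for NK and CD8 T cell genes.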

Additional observations from a re-analysis of the deposited data

How the results depend on the processing

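No member passed the threshold in edgeR under any scaling, filter or set of libraries tried, or in limma voom, and DESeq2 called 1 member (Ern1, KO_MCD against WT_NCD). Counts of genes called, 0 in each comparison, were 54, 1 and 140 without the low-count filter and 315, 50 and 562 with DESeq2, for WT_MCD against WT_NCD, KO_MCD against WT_MCD and KO_MCD against WT_NCD in that order. The cause of these differences was not tested. With scaling by total counts alone the median of all genes moved by about 0.1, from -0.03 to 0.07 in KO_MCD against WT_MCD.

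Some fitted log2 fold changes near 0 changed sign. For Xbp1 in KO_MCD against WT_MCD the value was 0.06 with total counts and 0.00 with a replicate block. For Ddit3 in KO_MCD against WT_NCD it was 0.04 with total counts, 0.06 with voom and 0.40 with a replicate block. With 1 library left out, the lowest and highest values were -1.16 and 0.71 for Hspa5, -1.46 and 0.08 for Ddit3 and -1.52 and 0.73 for Ppp1r15a in WT_MCD against WT_NCD. They were -0.19 and 0.06 for Xbp1 in KO_MCD against WT_MCD, and -0.57 and 1.31 for Hspa5, -0.63 and 0.91 for Ddit3 and -0.43 and 1.03 for Atf4 in KO_MCD against WT_NCD. Other named members kept their sign under the alternatives run on them.

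Deviations from the group mean correlated at -0.102 to 0.03 between same-numbered libraries. In a group of 2 libraries these deviations mirror each other, so this check cannot settle whether libraries were paired. The replicate block left 0 genes called in each comparison. Crossed pairs of the 4 wild type libraries, tried after that check, also gave 0.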
